A study of Mus musculus with 19 samples.

Results

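Interferon response genes are switched on when a cell detects foreign or misplaced nucleic acid. Cytosolic RNA helicases bind double-stranded RNA and signal through the mitochondrial adaptor MAVS to induce interferons, and interferon receptors then act through Janus kinases, STAT proteins and the factor IRF9 to raise antiviral effectors. Promoters of such effectors often carry the interferon-stimulated response element (ISRE), read by IRF9 together with STAT proteins and by IRF factors, or the gamma-activated site (GAS), read by STAT dimers. Neural stem cells are known to keep some of these effectors at a baseline level without infection.

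The set described here holds 9 of the 26621 genes in the RNA-seq count table. It was chosen by name, with earlier results of these data known. The members are the RNA sensors Ddx58 and Ifih1, the transcription factors Irf1 and Irf9, and the targets Ifitm3, Ifitm2, Bst2, Isg15 and Gbp2. Of these, 8 had enough reads to be tested and Isg15 did not.

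The cells were neural progenitor cells of the mouse cerebral cortex at embryonic day 17.5, kept on Matrigel in medium with bFGF and EGF. In the first group Mettl8, the gene of a mitochondrial enzyme that methylates cytidine in tRNA, is labelled as conditionally knocked out (cKO), and the second is labelled wild type (WT). RNA-seq had 6 cKO and 6 WT libraries, and hydrazine-aniline cleavage sequencing (HAC-seq), which maps 3-methylcytidine, had 3 cKO and 4 WT libraries. No label names the Cre driver, the deleted exons or separate cultures or embryos behind the replicates. The p-values therefore cover only the variation among these samples, and that variation may be technical. The library names divide the RNA-seq libraries into 2 sets whose meaning is not stated: set 2 held cKO replicates 3 to 6 and WT replicates 4 to 6, and set 1 held cKO replicates 1 and 2 and WT replicates 1 to 3.

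Total counts ran from 11830839 to 15766429 in cKO libraries and from 15096888 to 18863781 in WT libraries. The leading principal component (48.5% of variance) divided the libraries by set. All 8 markers of neural progenitors passed the filter, with summed levels of 11780 to 16187 CPM (counts scaled to library size) in cKO and 14552 to 16949 CPM in WT of set 2, and 13596 to 14272 CPM in cKO and 13460 to 14416 CPM in WT of set 1. Whole-gene reads of Mettl8 itself were higher in every cKO library (59.3 to 80.9 CPM) than in any WT library (35.9 to 58.6 CPM), with an edgeR adjusted p of 0.265. Reads from the whole gene include exons that a conditional deletion leaves in place, so this is no check of the knockout, and cKO below means the libraries labelled so.

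Promoter windows show which members carry the interferon motifs. RefSeq windows (GRCm38.p6) of 250 bases before and 50 bases from the annotated start were searched on both strands for the ISRE letters (GAAA, any 2 bases, GAAA) and the GAS letters TTCNNNGAA. Matches were allowed to overlap. The ISRE letters stood in 7 of the 9 members, all but Irf1 and Irf9, against 3.44% of 32851 windows in the table. Among the 139 pathway genes with a window, 49 (35.3%) held them. The GAS letters stood in Ifitm3, Bst2 and Irf1, against 8.3% of windows. Each motif match is a description of letters, not of a site in use.

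Ifitm3 and Ifitm2, the members with the largest differences between the library sets, are shown whole. Both lie on the minus strand of chromosome 7, at chr7:141009590-141010744 and chr7:140954837-140959686. The windows shown are chr7:141010695-141010994 and chr7:140955912-140956211, read 5′ to 3′ on the gene's strand, with the motif letters in capitals. The Ifitm3 window surrounds a start at the end of the gene's span. The Ifitm2 window lies wholly inside the gene's span, so the annotated start used is an internal one. In Ifitm3 the capitals mark ISRE letters, GAS letters and ISRE letters again, all after the annotated start (bases 2 to 28 counted from 0 at the start). The GAS match overlaps the second ISRE match. In Ifitm2 they mark 1 ISRE match before the start (bases -46 to -37).
Ifitm3: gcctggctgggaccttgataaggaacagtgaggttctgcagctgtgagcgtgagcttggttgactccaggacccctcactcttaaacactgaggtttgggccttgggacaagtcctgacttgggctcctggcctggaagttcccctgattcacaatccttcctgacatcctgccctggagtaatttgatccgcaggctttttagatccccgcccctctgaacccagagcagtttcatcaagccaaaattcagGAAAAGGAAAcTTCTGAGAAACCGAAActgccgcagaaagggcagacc
Ifitm2: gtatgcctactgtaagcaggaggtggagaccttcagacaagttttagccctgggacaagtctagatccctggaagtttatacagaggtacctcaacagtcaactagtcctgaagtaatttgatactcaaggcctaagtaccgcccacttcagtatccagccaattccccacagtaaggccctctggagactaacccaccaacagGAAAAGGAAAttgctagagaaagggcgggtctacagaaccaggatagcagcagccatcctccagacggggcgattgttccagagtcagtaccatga

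The other matched members are shown as short stretches around the motif, so that the spacing of the repeats can be compared. Isg15 (chr4:156200860-156200911, minus strand) carried 3 overlapping ISRE matches and Bst2 (chr8:71537572-71537623, minus strand) a GAS match that runs into 2 overlapping ISRE matches. Gbp2 (chr3:142620589-142620628, plus strand) and Ddx58 (chr4:40239799-40239838, minus strand) held the letters on the opposite strand, so their capitals read as the reverse complement. Ifih1 (chr2:62646206-62646238, minus strand) held 1 ISRE match after its start, and Irf1 (chr11:53769909-53769947, plus strand) 1 GAS match before the first of its annotated starts. Irf9 (chr14:55603985-55610030, plus strand) held neither motif.
Isg15: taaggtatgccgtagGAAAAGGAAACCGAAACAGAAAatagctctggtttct
Bst2: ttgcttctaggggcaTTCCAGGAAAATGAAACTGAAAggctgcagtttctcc
Gbp2: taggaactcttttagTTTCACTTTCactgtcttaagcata
Ddx58: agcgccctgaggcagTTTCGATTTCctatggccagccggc
Ifih1: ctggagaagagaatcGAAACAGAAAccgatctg
Irf1: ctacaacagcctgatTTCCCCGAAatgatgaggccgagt

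**Figure D1:**
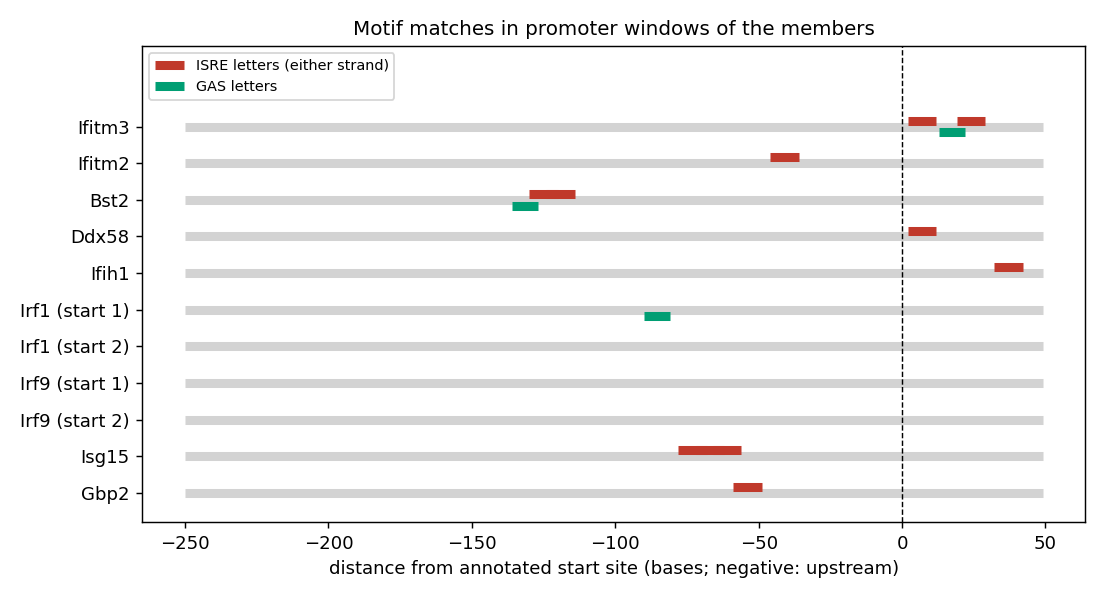
Motif matches in the 300-base promoter windows of the members, by distance in bases from each annotated start site (dashed line, 0). Grey bars are windows, red bars ISRE letters on either strand (adjoining matches merge) and green bars GAS letters. The matches of Isg15, Bst2, Ifitm2 and Gbp2 lie before the start, those of Ifitm3, Ddx58 and Ifih1 after it, and Irf9 has none.

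Ifitm3 and Ifitm2, membrane proteins that block virus entry, were higher in set 2 than in set 1, and neither was called between cKO and WT. In set 2, Ifitm3 stood at 129.5, 129, 130.4 and 139 CPM in cKO replicates 3 to 6, against 151, 165 and 169 CPM in WT replicates 4 to 6. In set 1 it stood at 34.0 and 37.8 CPM in cKO replicates 1 and 2, against 41.9, 43.8 and 37.1 CPM in WT replicates 1 to 3. Every cKO library of set 2 was below every WT library of that set, as was the case for 3.96% of all tested genes, while in set 1 the genotypes overlapped.
 For Ifitm3 the genotype log2 fold change, cKO over WT with set as a covariate, was -0.25 (SE 0.0612, n = 6 and 6). The unadjusted p in edgeR's quasi-likelihood test was 0.000548, the fourth smallest of 13105 genes, and its Benjamini-Hochberg adjusted p was 0.803, so it did not pass the threshold of 0.05. It was -0.29 (SE 0.0765) in set 2 alone and -0.19 (SE 0.131) in set 1 alone. A two-sided exact permutation test of log2 CPM within sets gave p = 0.00857, where the smallest p that 350 splits allow is 0.00286. This test was run on the 8 tested members, which were chosen with earlier results known, and its p-values are not adjusted over them.

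Ifitm2 showed the same order with more overlap. It stood at 81.6, 90.8, 79.4 and 78.5 CPM in cKO and 89.3, 99.1 and 87.9 CPM in WT libraries of set 2, and at 48.7 and 41.9 CPM in cKO and 47.4, 54.6 and 45.3 CPM in WT libraries of set 1. Of the 4 cKO libraries of set 2, 3 were below every WT library. Its genotype log2 fold change was -0.14 (SE 0.0692, edgeR adjusted p = 0.806), and the exact permutation p was 0.06. Ifitm2 and Ifitm3 are close paralogs, and how the counting treated reads that match both is not given in the sources used here, so the division of reads between them is uncertain.

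Between the sets both genes differed without overlap, as did 11.7% of tested genes on the higher side. Ifitm3 averaged 144.5 ± 17.0 CPM in set 2 (SD, n = 7) and 38.9 ± 3.93 CPM in set 1 (SD, n = 5), a 3.82-fold difference (log2 1.93, SE 0.0658, edgeR adjusted p = 8.03e-14). Its p was the fourth smallest of all tested genes in this comparison too. Ifitm2 averaged 86.7 ± 7.35 CPM in set 2 and 47.6 ± 4.70 CPM in set 1, a 1.85-fold difference (log2 0.89, SE 0.0717, edgeR adjusted p = 1.21e-08). For both genes the exact permutation test within genotypes gave p = 0.00333, the smallest that 300 splits allow.

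Both genes were called between the sets within each genotype too. The Ifitm3 log2 fold change, set 2 over set 1, was 1.88 in cKO libraries alone and 1.98 in WT libraries alone, and that of Ifitm2 was 0.87 in cKO and 0.90 in WT. The test of the difference between genotypes gave an interaction of -0.10 (SE 0.129, edgeR adjusted p = 1) for Ifitm3 and -0.042 (SE 0.146, edgeR adjusted p = 1) for Ifitm2.

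**Figure D2:**
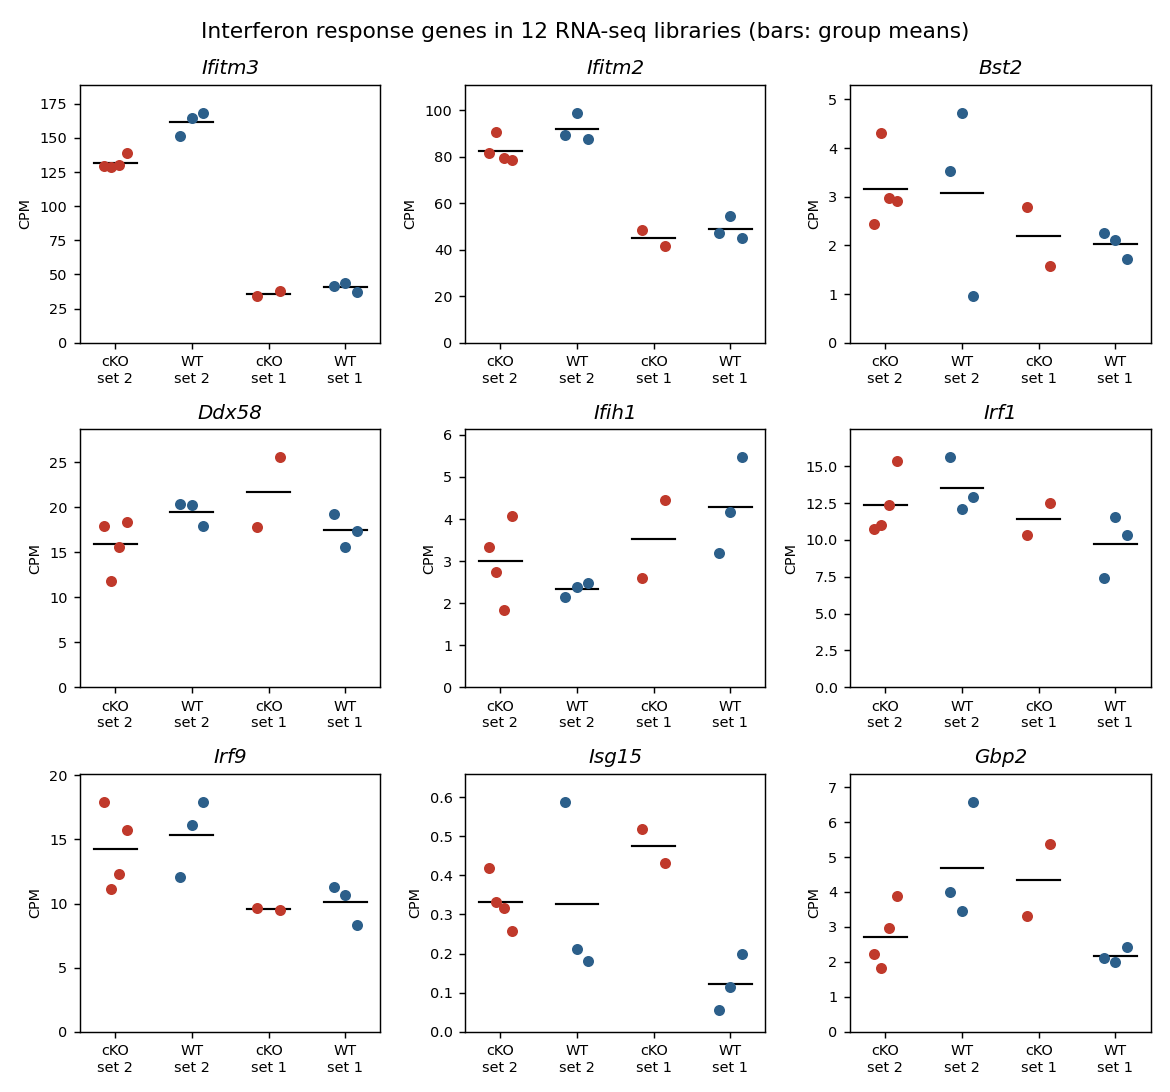
Level of each of the 9 genes in CPM (counts scaled to library size, linear axis from 0) in 12 RNA-seq libraries. Points are libraries, red for cKO and blue for WT, and bars are the means of each genotype within a set. Ifitm3 and Ifitm2 stand higher in every library of set 2 than in any of set 1. The order of the cKO and WT means differs between sets for Gbp2, Ddx58, Ifih1 and Irf1.

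The transcription factor gene Irf9, the DNA-binding partner of STAT proteins in the type I interferon response, was also higher in set 2. It averaged 14.8 ± 2.89 CPM in set 2 and 9.89 ± 1.16 CPM in set 1, a 1.51-fold difference (log2 0.59, SE 0.141, edgeR adjusted p = 0.00211). Libraries of set 2 ran from 11.1 to 17.9 CPM and those of set 1 from 8.31 to 11.3 CPM, so the ranges overlapped slightly. Its log2 difference was 0.58 in cKO libraries alone, where the adjusted p was 0.0592, and 0.60 in WT libraries alone, where it was 0.0237. The exact permutation p was 0.01. By genotype, Irf9 averaged 14.3 ± 3.14 CPM in cKO and 15.4 ± 3.03 CPM in WT of set 2, and 9.57 ± 0.131 CPM in cKO and 10.1 ± 1.58 CPM in WT of set 1, with a log2 fold change of -0.096 (SE 0.138, edgeR adjusted p = 0.929).

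Irf1, an interferon-induced activator of effector genes, did not pass the threshold in any comparison with all libraries. In set 2 it ran from 10.7 to 15.4 CPM in cKO and from 12.1 to 15.6 CPM in WT libraries, and in set 1 from 10.3 to 12.5 CPM in cKO and from 7.39 to 11.5 CPM in WT libraries. By genotype, Irf1 had a log2 fold change of 0.015 (SE 0.138, edgeR adjusted p = 0.991). The set log2 fold change was 0.31 (SE 0.141, edgeR adjusted p = 0.0844). With 1 library left out, the adjusted p ran from 0.0472 to 0.221 and passed in 1 of 12 runs, the one without cKO replicate 2.

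Neither sensor was called by genotype or by set. Ddx58, which encodes RIG-I, the sensor of short double-stranded RNA with a triphosphate end, stood at 17.88, 11.8, 15.6 and 18.3 CPM in cKO and 20.3, 20.3 and 17.89 CPM in WT libraries of set 2. In set 1 it stood at 17.8 and 25.6 CPM in cKO and 19.3, 15.6 and 17.4 CPM in WT libraries. In set 2, 3 of the 4 cKO libraries were below every WT library, while in set 1 the highest library was a cKO one. Ddx58 had a genotype log2 fold change of -0.29 (SE 0.154) in set 2 and 0.31 (SE 0.180) in set 1, and -0.040 (SE 0.136, edgeR adjusted p = 0.978) over both.

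Ifih1, which encodes MDA5, the sensor of long double-stranded RNA, rested on 29 to 83 reads a library. It ran from 1.83 to 4.07 CPM in cKO and from 2.16 to 2.48 CPM in WT libraries of set 2, and from 2.59 to 4.45 CPM in cKO and from 3.20 to 5.47 CPM in WT libraries of set 1. The genotypes overlapped in both sets, with a log2 fold change of 0.079 (SE 0.242, edgeR adjusted p = 0.976). Its set log2 fold change was -0.57 (SE 0.243, edgeR adjusted p = 0.0651). That adjusted p was 0.0216 without cKO replicate 1, 0.029 without cKO replicate 6 and 0.0406 in WT libraries alone (log2 -0.86). It passed in 2 of 12 runs with 1 library left out and reached 0.168 in the others.

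Bst2, which encodes tetherin, a membrane protein that holds budding virus at the cell surface, had 16 to 89 reads a library. It ran from 2.43 to 4.31 CPM in cKO and from 0.967 to 4.73 CPM in WT libraries of set 2, and from 1.58 to 2.79 CPM in cKO and from 1.71 to 2.26 CPM in WT libraries of set 1. The lowest and the highest library were both WT libraries of set 2. By genotype Bst2 had a log2 fold change of 0.057 (SE 0.300, edgeR adjusted p = 0.987). The set log2 fold change was 0.56 (SE 0.309, edgeR adjusted p = 0.151). With 1 library left out, the adjusted p ran from 0.0177 to 0.427. It passed in 1 of 12 such runs, the one without WT replicate 6, the lowest library.

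Gbp2, a guanylate-binding GTPase that acts against intracellular pathogens, had opposite genotype differences in the sets. In set 2 it stood at 2.23, 1.82, 2.97 and 3.87 CPM in cKO and 3.99, 3.45 and 6.59 CPM in WT libraries. In set 1 it stood at 3.31 and 5.39 CPM in cKO and 2.10, 2.00 and 2.44 CPM in WT libraries. Both cKO libraries of set 1 were above all WT libraries there, as was the case for 7.83% of tested genes, while in set 2 the groups overlapped, with 3 of 4 cKO libraries below all WT libraries.

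These differences in Gbp2 came to a genotype log2 fold change of -0.77 (SE 0.311) in set 2 and 0.99 (SE 0.345) in set 1. The interaction of genotype and set, set 2 minus set 1, was -1.76 (SE 0.479) for Gbp2, with an unadjusted p of 0.00171 and an edgeR adjusted p of 1. It was -0.60 (SE 0.248) for Ddx58, with an unadjusted p of 0.0256 and an edgeR adjusted p of 1. No gene of the whole table passed the interaction test (0% of 13105) with edgeR, while 3.54% had an unadjusted p under 0.05 and DESeq2 called 2 genes. Leaving out 1 library at a time gave interactions from -2.07 to -1.37 for Gbp2 and from -0.84 to -0.32 for Ddx58, the smallest in size for both without cKO replicate 2.

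Isg15, which encodes a ubiquitin-like modifier and is among the genes most strongly induced by type I interferon, was near the detection limit. It had 6, 4, 5 and 4 reads in cKO and 9, 4 and 3 reads in WT libraries of set 2, and 8 and 6 reads in cKO and 1, 2 and 3 reads in WT libraries of set 1. A floor of 3 reads is 0.159 to 0.249 CPM, depending on the library. The annotated spans of Isg15 (chr4:156199424-156200818), Gbp2 (chr3:142620663-142638008) and Ifih1 (chr2:62595618-62646255) overlap Gm46878, Mir6381 and Gm39839. Whether the counting used strand is not stated, so reads from overlapping genes cannot be told apart. Without the filter on low counts the Isg15 genotype log2 fold change was 0.77 (edgeR adjusted p = 0.868).

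Of the 8 tested members, 0 were called between cKO and WT by edgeR, the share over all genes being 0% of 13105. At an unadjusted p under 0.05 it was 1 member, Ifitm3, against 6.14% of all genes, and DESeq2 and limma-voom called 0 members. The log2 fold changes of 3 members were above 0 and of 5 below, against 6505 above and 6600 below over all genes. The median was -0.045 for the members and -0.0010 for all genes. Between the sets, 3 of 8 members were called, all higher in set 2, against 43.8% of all genes in either direction, 21.5% higher and 22.2% lower. The share of members called is thus near that of all genes.

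**Figure D3:**
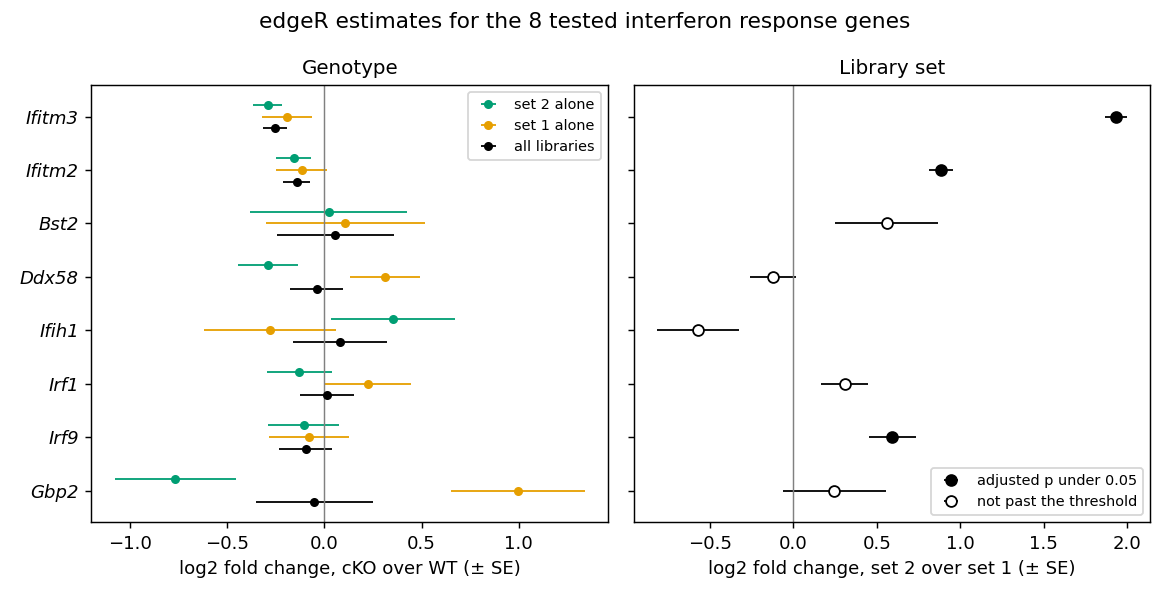
Log2 fold changes (± SE, edgeR) of the 8 tested members. Left, cKO over WT in set 2, in set 1 and in all libraries. Right, set 2 over set 1, filled where the adjusted p over all genes was under 0.05. Ifitm3 (1.93), Ifitm2 (0.89) and Irf9 (0.59) are filled. At left the estimates of the 2 sets lie on opposite sides of 0 for Gbp2, Ddx58, Ifih1 and Irf1.

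The wider pathway was read from 10 lists with 174 genes, of which 162 are in the table and 98 were tested. None of the 98 was called between cKO and WT by edgeR or DESeq2, while at an unadjusted p under 0.05 it was 2 higher (2.86% of all genes) and 4 lower (3.28% of all genes). Their log2 fold changes were above 0 for 38 and below 0 for 60 genes, with a median of -0.032. Of all 13105 tested genes, 6505 were above 0 and 6600 below, with a median of -0.0010. The genotype counts of each list below stand beside these. Interferon genes themselves could not be tested: 11 of the 17 in the table had no read, and the largest total was 5 reads over all libraries. Between the sets, 18 of the 98 were called higher and 15 lower in set 2, against 21.5% of all genes higher and 22.2% lower. Their median log2 fold change was 0.068, against 0.0012 for all genes. The set calls of each list below stand beside these same shares.

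Among 14 tested sensors and adaptors, 6 genotype log2 fold changes were above 0 and 8 below, and none was called. The ubiquitin ligase gene Rnf135, which aids RIG-I activation and had the smallest genotype p of the list, had a log2 fold change of -0.35 (SE 0.254, edgeR adjusted p = 0.870). Tbk1, the kinase that phosphorylates IRF3 and the gene with the highest CPM of the list (not corrected for length), averaged 92.4 ± 5.57 CPM in cKO and 89.5 ± 2.77 CPM in WT. Averages by genotype in these lists pool the 2 sets, which hold unequal shares of cKO and WT libraries. Between the sets 2 genes rose and 1 fell in set 2. The first was Tmem173, which encodes STING, the adaptor of cytosolic DNA sensing, at 28.9 ± 5.10 CPM in set 2 and 9.97 ± 2.36 CPM in set 1 (log2 1.51, edgeR adjusted p = 1.77e-07). The others, named after their values were seen, were the RNA editing gene Adar (log2 0.29) and the endosomal RNA sensor gene Tlr3 (log2 -0.49).

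Of 9 listed receptors and Janus kinases 8 were tested, with 7 genotype log2 fold changes above 0, 1 below and none called by edgeR. Ifngr1, a chain of the interferon gamma receptor, had 0.085 (SE 0.0891, edgeR adjusted p = 0.900). In set 2 the shared receptor chain gene Il10rb rose (log2 0.89, edgeR adjusted p = 5.94e-04) and the kinase gene Jak1 fell (log2 -0.19, edgeR adjusted p = 0.0387). Jak2, named after its values were seen, rose with a log2 fold change of 0.23.

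Of 7 tested STAT and IRF genes, none was called by genotype, and Irf2, a repressor of interferon genes, had the smallest p with a log2 fold change of 0.088 (SE 0.0966, edgeR adjusted p = 0.903). Between the sets Stat3 rose, beside Irf9. Stat3, which serves cytokine and growth factor receptors, averaged 126 ± 12.8 CPM in set 2 and 79.3 ± 6.68 CPM in set 1 (log2 0.68, edgeR adjusted p = 1.08e-06).

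Negative regulators had 4 genotype log2 fold changes above 0 and 4 below. Usp18, the protease that removes ISG15 from proteins and blocks the type I receptor, averaged 3.05 ± 1.30 CPM in cKO and 4.44 ± 1.25 CPM in WT (log2 -0.54, SE 0.264, edgeR adjusted p = 0.806). Pias1, an inhibitor of STAT signalling, fell in set 2 (log2 -0.26, edgeR adjusted p = 2.92e-04), and the phosphatase gene Ptpn2, named after its values were seen, rose (log2 0.19).

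The 25 tested antiviral effectors, members included, had 10 genotype log2 fold changes above 0 and 15 below, with a median of -0.032. Between the sets 3 rose and 5 fell in set 2. Beside Ifitm3 and Ifitm2 the one that rose was Pml (log2 0.46), the organizer of nuclear bodies. Those that fell were the interferon-induced genes Ifit3 (log2 -1.44), Ifi44 (-1.10), Rsad2 (-1.02), Zc3hav1 (-0.95) and Rtp4 (-0.48), with edgeR adjusted p from 5.97e-05 to 0.0377. Pml and these 5 were named after their values were seen. Effectors of the same list therefore differed between the sets in both directions, as did the genes of the whole table.

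Of 9 tested GTPases of the GBP and IRG families, 8 had a genotype log2 fold change below 0 (6600 of all 13105 genes), and none was called. The median was -0.089 over both sets, -0.23 in set 2 and 0.11 in set 1. Igtp had -0.27 (SE 0.187, edgeR adjusted p = 0.870), and Gbp7, the highest in CPM, averaged 97.6 ± 13.3 CPM in cKO and 102 ± 14.5 CPM in WT. In set 2 Irgm1 fell (log2 -0.50, edgeR adjusted p = 9.55e-05), and Gbp9, named after its values were seen, rose (log2 2.94, edgeR adjusted p = 1.56e-04). Genes of these families and class I genes have near-identical copies, so the division of reads among them is uncertain.

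Antigen presentation had 15 of 16 genotype log2 fold changes below 0 (6600 of all 13105 genes), and none was called. The median was -0.098 over both sets, -0.14 in set 2 and -0.023 in set 1. H2-T22, a class I molecule, averaged 14.5 ± 2.89 CPM in cKO and 18.0 ± 4.32 CPM in WT. These averages pool the sets, and H2-T22 itself fell in set 2 (log2 -0.56, edgeR adjusted p = 1.25e-04). With set as a covariate, its genotype log2 fold change was -0.20 (SE 0.0970, edgeR adjusted p = 0.806). Between the sets 2 genes of the list rose and 4 fell in set 2, among them the chaperone gene Canx (log2 -0.41, edgeR adjusted p = 3.53e-05). Few chemokines had enough reads. All 3 tested rose in set 2: Cxcl10 to 2.12 ± 0.884 CPM, against 0.467 ± 0.249 CPM in set 1 (log2 2.28, edgeR adjusted p = 5.01e-05), Ccl2 with a log2 fold change of 1.86 (edgeR adjusted p = 5.21e-07) and Ccl7 with 1.49 (edgeR adjusted p = 0.00545). Cxcl10, the ligand of CXCR3 and a classic interferon target, had a genotype log2 fold change of -0.83 (SE 0.335, edgeR adjusted p = 0.803).

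Genes of mitochondrial RNA surveillance and release, which limit or permit the escape of mitochondrial RNA to the cytosolic sensors, had 6 of 8 genotype log2 fold changes above 0. Bcl2l1, an inhibitor of outer membrane pores, had 0.15 (SE 0.0904, edgeR adjusted p = 0.857). In set 2 the pore gene Bak1 rose (log2 0.82, edgeR adjusted p = 7.05e-04), the related Bax fell (log2 -0.29, edgeR adjusted p = 0.0310), and Pnpt1, which degrades mitochondrial RNA and was named after its values were seen, rose (log2 0.26).

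**Figure D4:**
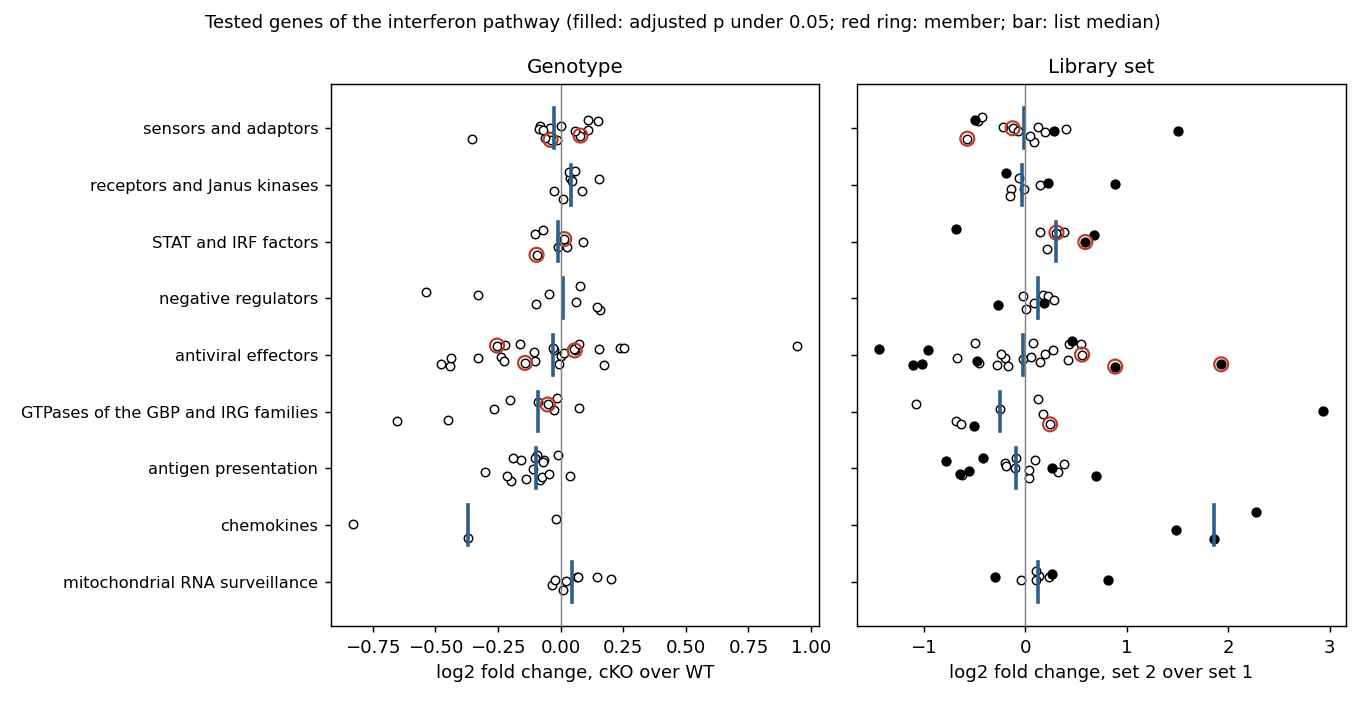
Log2 fold changes of the 98 tested pathway genes by list, cKO over WT at left and set 2 over set 1 at right. Points are genes, filled where the adjusted p over all genes was under 0.05, red rings mark the members and blue bars the list medians. No point is filled at left, and at right 18 filled points lie above 0 and 15 below (21.5% and 22.2% over all genes).

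Genes with the ISRE letters were called about as often as genes without them. Of 304 tested genes with the letters in their promoter window, 20.7% rose and 23% fell in set 2, while of 8814 genes without them 21.7% rose and 23% fell. Their median genotype log2 fold change was 0.0048, against 0.0013 for genes without the letters. Of the 26 tested pathway genes with the letters, 20 had a genotype log2 fold change below 0, against 60 of all 98 tested pathway genes. Their median was -0.060, against -0.016 for 57 pathway genes without the letters.

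Markers of neural progenitors and of other cells moved with the library sets. Of the 8 tested progenitor markers, 3 were called higher and 5 lower in set 2, against 21.5% and 22.2% of all genes. Their sums, given above, do not show these shifts in both directions. Of 13 markers of microglia and macrophages, which respond strongly to interferon, 2 were tested (P2ry12 and Cd68), and Tmem119, C1qa, C1qc and Trem2 had no read in any library. Both tested markers were called higher in set 2. In set 2 the 13 markers summed to 9.04 to 14.3 CPM in cKO and 9.49 to 12.2 CPM in WT. In set 1 they summed to 4.47 to 6.10 CPM in cKO and 3.81 to 6.10 CPM in WT. Nearly all of these sums came from P2ry12 (mean 4.33 CPM over all libraries) and Cd68 (3.96 CPM). The untested markers of this list averaged at most 0.106 CPM (Csf1r), so the sums do not show that microglia or macrophages were present. Endothelial markers summed to at most 5.08 CPM in any library, with Tie1 at 0, and fibroblast markers to at most 3.82 CPM.

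Of 7 listed markers of mural cells 2 were tested, Cspg4 and Acta2, and Abcc9 was at 0. The markers summed to 29.7 to 39.3 CPM in cKO and 26.2 to 27.5 CPM in WT of set 2, against 35.9 to 46.4 CPM in cKO and 31.0 to 43.6 CPM in WT of set 1. Nearly all of these sums came from Cspg4 (mean 25.2 CPM over all libraries) and Acta2 (7.86 CPM). The untested markers averaged at most 0.465 CPM (Pdgfrb), so the sums do not show that mural cells were present. Neuronal markers summed to 171 to 244 CPM in cKO and 232 to 332 CPM in WT of set 2, and 125 to 144 CPM in cKO and 114 to 143 CPM in WT of set 1. Astrocyte markers were lower in set 2, at 1048 to 1921 CPM in cKO and 1586 to 2107 CPM in WT, than in set 1, at 2519 to 3020 CPM in cKO and 2660 to 3107 CPM in WT. Oligodendrocyte lineage markers summed to 369 to 543 CPM in cKO and 424 to 650 CPM in WT of set 2, and 915 to 1114 CPM in cKO and 863 to 1119 CPM in WT of set 1. The part of these cells in the set differences of Ifitm3, Ifitm2 and Irf9 was not tested, and in bulk samples fewer cells of a type and less RNA per cell cannot be told apart.

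Within genotype and set, the genes whose log2 CPM followed Ifitm3 most closely were Gm17066 (Pearson r 0.961), the cargo receptor gene Lman1 (r 0.943) and Fgd4 (r 0.940), over 12 libraries after the mean of each genotype in each set was removed. They were picked as the highest of all tested genes, share libraries and depth with Ifitm3, and are given as a description. Among the members, Ifitm3 had an r of 0.0857 with Ifitm2 and 0.608 with Irf9, and Bst2 had -0.763 with Gbp2.

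HAC-seq gave a second readout for the members with listed cytidine sites, Ifitm3 with 8 sites (chr7:141010450-141010594, minus strand) and Ifitm2 with 1 (position 140955750 of chromosome 7, also annotated to Gm45717). The other 7 members have no listed site. The table lists sites with at least 2 read starts in every WT library, so a listed site is not by itself a modified one. Ifitm3 had a mean coverage, scaled by median of ratios, of 68.7, 83.3 and 111 reads a site in cKO and 87.6, 78.7, 162 and 133 in WT libraries. The groups overlapped, with cKO averaging 87.8 ± 21.7 (SD, n = 3) and WT 115 ± 39.1 (SD, n = 4).

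The log2 difference in coverage of Ifitm3, cKO minus WT, was -0.36 (SE 0.257), with a limma adjusted p of 0.542 over 7771 genes, of which 0.0129% were called. Ifitm2, at 33.0 ± 3.28 in cKO and 33.0 ± 4.26 in WT, had a difference of 0.0040 (SE 0.145, limma adjusted p = 0.992). The share of reads that start 1 base downstream of a site, the cleavage signal of 3-methylcytidine, was 2.30% to 3.13% in cKO and 2.82% to 3.61% in WT for Ifitm3. For Ifitm2 it was 4% to 8.70% in cKO and 4.65% to 18.4% in WT, on 23 to 43 reads. Every listed site has at least 2 read starts in each WT library, while Ifitm2 had 1 in cKO replicate 2. Listing by WT read starts favours higher shares in WT, so these ranges do not compare the genotypes on equal terms. Of 18 pathway genes tested in this readout, 12 were below 0 and none was called by limma. Their median log2 difference was -0.079, against -0.00087 for all genes.

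**Figure D5:**
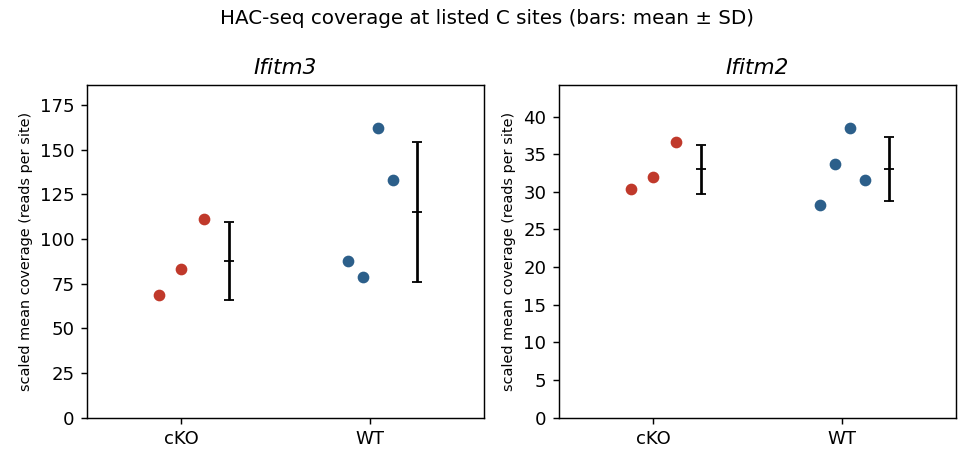
HAC-seq coverage of Ifitm3 and Ifitm2 at their listed cytidine sites, in scaled reads per site (linear axis from 0). Points are libraries, red for 3 cKO and blue for 4 WT, with the mean and SD beside them. Ifitm3 runs from 68.7 to 111 in cKO and from 78.7 to 162 in WT, and the groups overlap for both genes.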

How the data were processed

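RNA was measured by RNA-seq (SMART-seq2, per the labels) and HAC-seq. The submitters' processing notes name STAR 2.5.2a, Trimmomatic 0.32, bcl2fastq 2.17.1.14 and build GRCm38 (GRCm38.p6 for HAC-seq), without roles, while no source used here gives the counting program. The values deposited for RNA-seq are read counts per gene, not normalized. The deposited HAC-seq table holds a coverage signal per cytidine site, for all reads and for reads starting 1 base downstream.

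The members and gene lists were chosen with earlier results of these data known. Counts were fitted on the whole table with edgeR 4.0.16 in R 4.3.3: filterByExpr by genotype kept 13105 genes, TMM scaled the libraries, and the two-sided quasi-likelihood F test took genotype and library set as terms, with Benjamini-Hochberg adjustment over all genes and a threshold of 0.05. No library was left out. Low counts were mostly even (17.4% of counts from 1 to 10 were odd, against 50.1% from 101 to 1000), so an alternative divided counts by 2. HAC-seq coverage was averaged per gene over distinct sites, scaled by median of ratios and tested with limma 3.58.1 on log2(coverage + 1), for genes with a mean coverage of at least 10. The genotype fit and the HAC-seq coverage fit were tested on simulated data, while the library set, interaction and single-set fits were not. Intervals and floors cover counting error only.

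Named genes were all members and, of each list, the tested gene with the smallest p by genotype, with the smallest p by set, and with the highest mean CPM, since no gene lengths were at hand. Alternatives were DESeq2 1.42.0 (test and size factors), limma-voom, no filter, halved counts, a replicate block, single sets or genotypes, and each library left out. Exact permutation tests permuted within sets or genotypes. Gene spans and promoters are from RefSeq GRCm38.p6. Some listed genes are not reported here.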

Additional observations from a re-analysis of the deposited data

Results flagged for a closer look

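Of 31 groups of libraries checked for a single value that stands apart, 2 held one, and chance gives about 1 in 20. Ifitm3 in cKO libraries of set 2 had its highest value, 139 CPM in replicate 6, set off from the others (129 to 130.4 CPM) by 0.837 of the group's range. That library was still below every WT library of set 2. Isg15 in WT had its highest value in replicate 4, with 9 reads against 1 to 4 in the other WT libraries, a gap of 0.705 of the range.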

How the results depend on the processing

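Ifitm3 and Ifitm2 were called between the sets under each of the 7 other settings and with each of 12 libraries left out. Genes called between cKO and WT numbered 0, and 65 without the filter, 2 with DESeq2, 1 with limma-voom, 2 in set 2 alone, and 0 to 1 with 1 library left out. Interactions called numbered 0, and 35 without the filter, 2 with DESeq2 and 0 to 1 with 1 library left out. Set calls numbered 5736, and 3558 in WT alone, 3437 in cKO alone and 4957 to 5727 with 1 library left out. HAC-seq coverage calls numbered 1, and 1 to 5 with 1 library left out. The genotype log2 fold change of Ifih1 was -0.061 with no set term and -0.28 in set 1, those of Ddx58 and Gbp2 0.31 and 0.99 in set 1, and that of Irf1 -0.13 in set 2. With 1 library left out these ran from -0.18 to 0.31 for Bst2, -0.19 to 0.043 for Ddx58, -0.046 to 0.26 for Ifih1, -0.065 to 0.097 for Irf1 and -0.35 to 0.23 for Gbp2. The set log2 fold change of Ddx58 was 0.16 in WT alone and -0.19 to 0.050 with 1 library left out, and that of Gbp2 -0.66 in cKO alone, against 1.10 (adjusted p = 0.016) in WT alone. The HAC-seq difference of Ifitm2 was -0.26 with total coverage scaling and -0.073 to 0.080 with 1 library left out. The median set log2 fold change of GTPases was 0.14 with halved counts, against -0.25; list medians and interactions of single genes were added to the alternatives after the data were seen. The cause of these shifts was not tested.

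Replicate numbers were checked for pairing: 5 of 6 same-numbered pairs correlated over 0.1, pair 3, which crosses the sets, had -0.359, and 4 of 12 samples correlated best with their own number, so samples share only a number. A replicate block together with the set called 2 genes by genotype and gave Ifitm3 -0.27 (adjusted p = 0.234). In place of the set, the block gave 0.044 for Ifitm3, 0.0039 for Ifitm2 and -0.046 for Ifih1. The HAC-seq replicate block gave -0.013 for Ifitm2. Depth limits Isg15, Bst2, Ifih1 and Gbp2, which had at most 109 reads in any library.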
